A study of Mus musculus with 2 samples.

Results

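The 10 genes described here make up the machinery by which a B cell precursor builds and tests its first antigen receptor. Vpreb1 and Igll1 encode the surrogate light chain, and Vpreb3 encodes a related chain of B cell precursors. Rag1, Rag2 and Dntt encode enzymes of V(D)J recombination, Ebf1 and Pax5 encode transcription factors of B cell identity, and Cd79a and Cd79b encode the signalling subunits of the receptor. The genes were taken by symbol from the 32285 genes of the count tables, and all 10 had counts in both libraries.

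Single-cell RNA was measured in flushed total bone marrow of 1 control and 1 DKO mouse, both 2 months old, with 1 Chromium 3′ v3 library each. The control is labelled WT, and the study describes it as a Ddx41 fl/fl mouse without VavCre and with intact cGas. The DKO mouse is VavCre:Ddx41 fl/fl, cGAS-/-, a genotype made to remove the helicase Ddx41 from blood cells, where the Vav promoter drives Cre, and the DNA sensor cGas from every cell. The loss of Ddx41 and the loss of cGas cannot be told apart here, nor can either be told apart from the mouse or the library.

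The control library kept 18691 cells with a median of 4871 UMIs (unique molecular identifiers, each taken as 1 captured RNA molecule), and the DKO library 13729 cells with a median of 6904. The control table also held the empty droplets, whereas the DKO table held called cells only, and 79 barcodes occurred in both libraries. Cells of the B lineage numbered 2502 in the control (13.4% of cells) and 1655 in the DKO library (12.1%). Clusters of these cells were named from markers that exclude the 10 genes. They gave pro-B-like cells (98 control and 63 DKO), cycling pro-B-like or pre-B-like cells (304 and 211), small pre-B-like cells (469 and 359), immature B-like cells (262 and 195) and mature B-like cells (1096 and 693). Another 273 and 134 cells stayed unnamed, and plasma cell-like cells (66 and 52) formed a class of their own. Over the 5 stages Ddx41 had 44.4 counts per 1000000 UMIs (CPM, 326 UMIs) in control and 20.8 CPM (158 UMIs) in DKO cells, which is -1.09 (-1.38 to -0.81) on the log2 scale, and Cgas had 24 and 12 UMIs in all. Counted 3′ ends may lie outside the deleted parts of both genes, so these levels check the labels only in part.

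In bone marrow, a pro-B cell first joins D and J, then V, segments of the heavy chain gene, a reaction cut by Rag1 and Rag2 and diversified by Dntt, the template-independent polymerase TdT. The finished heavy chain pairs with Vpreb1 and Igll1 and is carried to the surface with Cd79a and Cd79b as the pre-B cell receptor, whose signal drives a burst of division and shuts off the surrogate light chain. The small resting pre-B cell then expresses the recombinase again to join its light chain, and Ebf1 and Pax5 hold the B cell programme in place throughout until plasma cell differentiation ends it.

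Levels are given in CPM, the counts of a gene after the UMIs of all cells of a stage in 1 library are scaled to 1000000, with exact Poisson 95% intervals. Ratios are log2 values of the DKO level over that of the control, after adding 1 count to each sum. Intervals cover counting error only. With 1 mouse per genotype no difference between genotypes could be set against a spread between animals, so no p-value is given, and a gene is called past the fold at 2-fold with at least 20 CPM in 1 library. Such levels are shares of a stage's RNA, so less of 1 RNA cannot be told apart from more of the others.

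**Figure D1:**
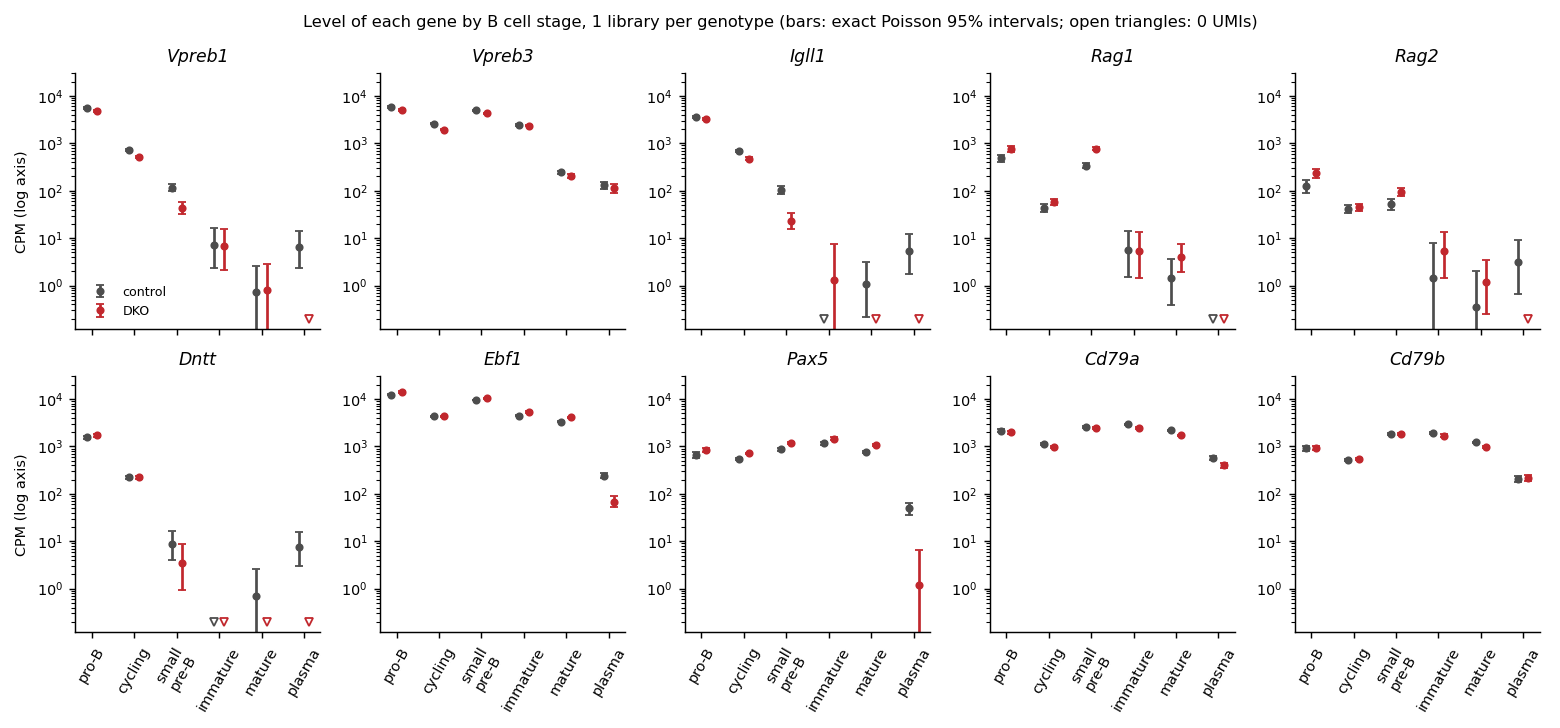
Each panel shows 1 gene, with CPM on a log axis for 5 B cell stages and plasma cell-like cells, control and DKO side by side, and bars for the exact Poisson 95% intervals. Vpreb1, Igll1 and Dntt fall away after the pro-B-like stage in both libraries, Rag1 is high in pro-B-like and small pre-B-like cells and low in the cycling cells between them, and Ebf1, Pax5, Cd79a and Cd79b stay above 500 in every B cell stage.

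The genes of the surrogate light chain were highest in pro-B-like cells in both libraries. Vpreb1 had 5526 CPM in control and 4732 in DKO pro-B-like cells, 736 and 517 in cycling cells, and 116 and 43.0 in small pre-B-like cells. Igll1 followed the same order with 3613 and 3249, 678 and 476, and 105 and 23.2. From pro-B-like to small pre-B-like cells, Vpreb1 was 47.2-fold lower in control and 108-fold lower in DKO cells, and Igll1 34.0-fold and 135-fold lower. Immature B-like cells held 5 Vpreb1 UMIs in each library, and 0 and 1 Igll1 UMIs, where a count of 0 in the control allows up to 4.25 CPM at 3 counts (5.22 CPM as the upper end of the exact 95% interval). Mature B-like cells held 2 Vpreb1 UMIs in each library and 3 and 0 Igll1 UMIs. Empty droplets of the control held Vpreb1 at 22.8 and Igll1 at 18.9 CPM, and the DKO small pre-B-like level of Igll1 (23.2 CPM) was close to the latter. Mature B-like cells, with Igll1 at 1.07 CPM in control and 0 in DKO cells, lay far below that droplet level. Empty droplets of the DKO library were not analysed here.

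Both genes lie on chromosome 16 of GRCm38 on the minus strand, Igll1 at chr16:16860671-16863985 and Vpreb1 at chr16:16868403-16870843, with 4.417 kb between them. Their promoters are printed because these neighbours had almost the same course over the stages. The sequences come from RefSeq (GRCm38.p6), run 5′ to 3′ on the gene's strand from 250 bases before the start site to 50 bases after it, and span chr16:16863936-16864235 for Igll1 and chr16:16869206-16869505 for Vpreb1. Capitals mark matches to the E-box letters CAGGTG on either strand (a sequence bound by E proteins such as E2A) and to CCCNNGGG (the core letters of sites bound by Ebf1).

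Igll1: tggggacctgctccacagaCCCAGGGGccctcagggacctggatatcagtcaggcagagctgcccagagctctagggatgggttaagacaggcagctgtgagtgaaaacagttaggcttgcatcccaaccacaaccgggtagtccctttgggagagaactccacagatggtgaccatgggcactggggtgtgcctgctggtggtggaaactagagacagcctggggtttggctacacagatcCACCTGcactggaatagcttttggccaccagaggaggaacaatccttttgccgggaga
Vpreb1: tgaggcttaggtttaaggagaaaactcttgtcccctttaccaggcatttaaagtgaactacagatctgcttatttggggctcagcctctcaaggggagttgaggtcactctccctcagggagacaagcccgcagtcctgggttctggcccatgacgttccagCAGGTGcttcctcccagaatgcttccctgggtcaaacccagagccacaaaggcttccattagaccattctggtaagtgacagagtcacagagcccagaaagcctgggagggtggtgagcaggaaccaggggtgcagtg

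The E-box letters begin 8 bases before the start site of Igll1, where they read CACCTG, and 88 bases before that of Vpreb1. The Ebf1 core letters occur in the Igll1 window only among the members, 231 bases before its start site. A promoter was available for 9 of the 10 genes, and 4 of these 9 (Igll1, Vpreb1, Rag1 and Cd79a) held the E-box letters, against 20.2% of 32851 promoters of the same length. The Ebf1 core letters stood in 13.7% of all promoters, and the longer form TCCCNNGGG in 6.56% of all and in none of the 9. These matches describe the letters of the windows and were not tested as sites.

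Vpreb1 and Igll1 were mostly counted in the same cells in the pro-B-like and cycling stages. In pro-B-like cells both genes had a UMI in 92.9% of control and 93.7% of DKO cells, and every cell with Vpreb1 also had Igll1. Igll1 was found there in 96 of 98 control and 62 of 63 DKO cells, so nearly any cell would have it. Among cycling cells, 53.0% of control and 48.3% of DKO cells had Vpreb1, and 90.7% and 80.4% of those also had Igll1. Igll1 was found in 165 of the 304 control cycling cells, with a median of 8 Igll1 UMIs in those cells, so the stage held cells with and without it. In small pre-B-like cells the overlap was smaller, and 62.1% of control and 36.8% of DKO cells with Vpreb1 also had Igll1. Vpreb1 shares 27.9% of the 60-base stretches of its last 500 transcript bases with its near copy Vpreb2, so reads may be split between the pair. Vpreb2 itself had 480 and 712 CPM in pro-B-like cells and 11.7 and 0.86 in small pre-B-like cells, the same order as Vpreb1.

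Vpreb3 behaved differently from its namesakes. It had 5883 and 4946 CPM in control and DKO pro-B-like cells, 2579 and 1948 in cycling cells, 4974 and 4294 in small pre-B-like cells and 2472 and 2371 in immature B-like cells. The level in small pre-B-like cells was thus close to that of pro-B-like cells, 1.18-fold and 1.15-fold lower. The sharp step of Vpreb3 came later, since mature B-like cells had 245 and 205 CPM, 10.1-fold and 11.6-fold less than immature B-like cells. Of the 5 members tested between immature and mature B-like cells, Vpreb3 alone differed at least 4-fold in both libraries, as did 2.81% of all genes tested.

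Rag1, which cuts DNA at the recombination signals, was counted in 2 stages with a gap between them. It had 483 (411 to 563) CPM in control and 759 (669 to 857) in DKO pro-B-like cells, then 43.5 and 58.6 in cycling cells, and again 340 (305 to 378) and 765 (715 to 817) in small pre-B-like cells. The cycling cells were therefore 11.1-fold (control) and 12.9-fold (DKO) below pro-B-like cells, and their log2 ratio to small pre-B-like cells was -2.96 and -3.70. In immature B-like cells 4 Rag1 UMIs were left in each library. Rag2, the obligate partner of Rag1, gave fewer UMIs, with 126 and 235 CPM in pro-B-like cells, 40.7 and 44.5 in cycling cells, 51.8 and 95.6 in small pre-B-like cells, and 1 and 4 UMIs in immature B-like cells. In the control the Rag2 interval of small pre-B-like cells (38.8 to 67.7) overlapped that of cycling cells (33.1 to 49.4), so the gap seen for Rag1 was not resolved for Rag2 there.

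Rag1 (minus strand) and Rag2 (plus strand) are neighbours on chromosome 2, at chr2:101638282-101649501 and chr2:101624718-101632529, with 5.752 kb between their ends. Both lie within the span of B230118H07Rik, which runs on the strand of Rag1, so reads of that gene cannot be fully told apart from those of Rag1. The Rag1 promoter, chr2:101649483-101649782 on the minus strand, is printed because Rag1 is the member that was more than 2-fold higher in DKO small pre-B-like cells. Its capitals mark the E-box letters 135 bases before the start site.

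Rag1: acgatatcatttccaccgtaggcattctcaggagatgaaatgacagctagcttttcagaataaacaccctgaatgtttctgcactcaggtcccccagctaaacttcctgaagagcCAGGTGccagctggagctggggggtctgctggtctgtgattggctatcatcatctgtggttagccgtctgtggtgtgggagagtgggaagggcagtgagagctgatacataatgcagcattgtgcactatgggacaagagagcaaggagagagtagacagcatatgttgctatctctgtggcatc

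Dntt showed the largest drop of the 10 genes from pro-B-like to small pre-B-like cells. It had 1547 and 1706 CPM there, 222 and 224 in cycling cells, and 8.79 and 3.44 (9 and 4 UMIs) in small pre-B-like cells, a drop of 159-fold in control and 397-fold in DKO cells. Both small pre-B-like levels lie below the 18.7 CPM of Dntt in the control's empty droplets, so the size of these folds rests on counts below the level of empty droplets. Immature B-like cells held 0 Dntt UMIs in both libraries. The Dntt counts of the cycling stage came from a small part of its cells, 21.1% in control and 11.8% in DKO cells, and 62 of these 64 control and 24 of these 25 DKO cells also had Igll1. In the DKO library 5 cycling cells held 47.9% of the stage's Dntt UMIs.

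Ebf1 and Pax5 were present in every stage. Ebf1 had 12294 and 14030 CPM in control and DKO pro-B-like cells, 4268 and 4332 in cycling cells, 9469 and 10369 in small pre-B-like cells, 4435 and 5302 in immature and 3283 and 4081 in mature B-like cells. Its range over the 5 stages stayed below 4-fold in both libraries. Pax5 had its highest level in immature B-like cells, 1158 and 1451 CPM, and its lowest in cycling cells, 538 and 708. In pro-B-like cells Ebf1 was found in all 98 control and all 63 DKO cells, and Pax5 in 78 and 61 of them. The antisense gene Gm12158 lies inside Ebf1 and Gm12462 inside Pax5, on the opposite strands.

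Cd79a (Ig-alpha) and Cd79b (Ig-beta), which carry the signal of both the pre-B and the B cell receptor, were, among the 5 B cell stages, lowest in cycling cells and highest in small pre-B-like and immature B-like cells. Cd79a had 2150 and 1994 CPM in control and DKO pro-B-like cells, 1111 and 980 in cycling, 2595 and 2421 in small pre-B-like, 2900 and 2451 in immature and 2191 and 1709 in mature B-like cells. Cd79b had 903 and 923, 514 and 533, 1820 and 1838, 1902 and 1691, and 1212 and 967. From pro-B-like to small pre-B-like cells Cd79b was 2.01-fold higher in control and 1.99-fold in DKO cells, and Cd79a 1.21-fold higher in both. The Cd79a promoter (chr7:24897247-24897546, plus strand) is shown as the member window in which the E-box letters lie farthest upstream, 154 bases before the start site.

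Cd79a: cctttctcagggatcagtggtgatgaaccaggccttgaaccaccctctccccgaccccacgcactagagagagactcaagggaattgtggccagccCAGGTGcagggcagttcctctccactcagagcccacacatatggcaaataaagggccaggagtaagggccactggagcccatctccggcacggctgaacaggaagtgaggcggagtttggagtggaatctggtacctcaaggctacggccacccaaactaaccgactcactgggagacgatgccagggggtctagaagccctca

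Between stages, a gene was called past the fold when it differed at least 4-fold the same way in both libraries. Between pro-B-like and cycling cells 4 of 10 members passed (Vpreb1, Igll1, Rag1 and Dntt, all higher in pro-B-like cells), against 8.28% of all genes tested. Between pro-B-like and small pre-B-like cells 3 of 10 passed (Vpreb1, Igll1 and Dntt), against 5.39%. Between cycling and small pre-B-like cells 4 of 10 passed, with Vpreb1, Igll1 and Dntt higher in cycling and Rag1 higher in small pre-B-like cells, against 7.97%. From small pre-B-like to immature B-like cells 4 of 9 passed (Vpreb1, Igll1, Rag1 and Rag2, all lower in immature cells), against 2.36%. Over the whole path from pro-B-like to mature B-like cells, 6 of 10 members passed, all of them lower in mature cells, against 8.96%. The members without such a step were Ebf1, Pax5, Cd79a and Cd79b.

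Plasma cell-like cells had the lowest levels of Vpreb3, Ebf1, Pax5, Cd79a and Cd79b in both libraries. Against mature B-like cells, 3 of 5 members tested passed 4-fold in both libraries, while 22.2% of all genes did. Ebf1 was 13.5-fold lower in control and 58.8-fold lower in DKO cells, and Cd79b 5.77-fold and 4.44-fold lower. Pax5 was 15.4-fold lower in the control, and the DKO class held 1 Pax5 UMI in 52 cells. Cd79a was lower too, with 576 and 398 CPM in plasma cell-like cells, but stayed under 4-fold in the control.

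**Figure D2:**
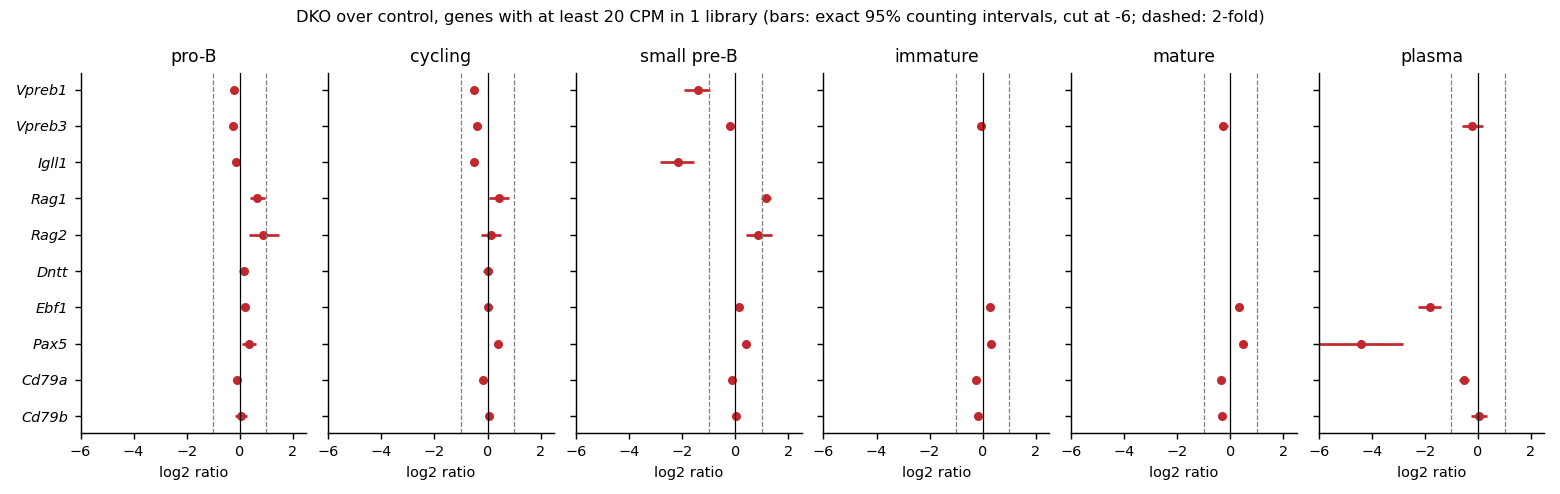
Each panel shows 1 stage, with log2 ratios (DKO over control) on the x axis for every gene with at least 20 CPM in 1 library, bars for the exact 95% counting intervals and dashed lines at 2-fold. Rag1 lies right of the upper line and Vpreb1 and Igll1 left of the lower line in small pre-B-like cells only, and Ebf1 and Pax5 lie left of the lower line in plasma cell-like cells.

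DKO against control, the members passed 2-fold only in small pre-B-like and plasma cell-like cells. In pro-B-like cells 0 of 10 members passed, where 13% of all genes tested did, and in cycling cells 0 of 10, where 1.2% did. In small pre-B-like cells 3 of 9 tested members passed, against 3.66% of all genes. In immature B-like cells 0 of 5 passed, against 5.06%, and in mature B-like cells 0 of 5, against 1.92%. In plasma cell-like cells 2 of 5 passed, against 23%. The median log2 ratio of all genes tested lay between -0.03 and 0.12 in the 5 B cell stages and at -0.30 in plasma cell-like cells, and that of the members between -0.26 and 0.09 and at -0.53.

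Rag1 was the member more than 2-fold higher in DKO small pre-B-like cells. The 469 control cells summed to 348 Rag1 UMIs and the 359 DKO cells to 888, so that the log2 ratio was 1.17 (0.99 to 1.35). Rag1 was also higher in DKO pro-B-like cells, with a log2 ratio of 0.65 (0.36 to 0.95), and in DKO cycling cells, with 0.43 (0.07 to 0.79). Rag2 had log2 ratios of 0.89 (0.35 to 1.48) in pro-B-like and 0.87 (0.40 to 1.39) in small pre-B-like cells, below the 2-fold line, and its interval included 0 in cycling cells (0.13, -0.26 to 0.52). The difference in Rag1 between the stages was not tested.

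The Rag1 difference was spread over many cells. A Rag1 UMI was found in 224 of 469 control and 287 of 359 DKO small pre-B-like cells, and the 5 cells with most Rag1 held 7.18% and 6.31% of its UMIs. Cells of the DKO library were deeper (a median of 3103 against 2121 UMIs in this stage), so each cell was also thinned to 1000 UMIs. The share with Rag1 was then 27.4% (23.2 to 31.9) in control and 54.4% (49.1 to 59.8) in DKO cells, and that with Rag2 3.98% (2.34 to 6.30) and 10.9% (7.82 to 14.6). Cells with both made up 1.87% (0.81 to 3.66) and 6.59% (4.22 to 9.72) after thinning, and 6.61% and 22.6% before it. Late erythroid-like cells, which should lack these genes and had medians of 5350 and 8089.5 UMIs, had Rag1 in 0 of 5741 thinned control cells (95% interval up to 0.064%) and in 2 of 4637 thinned DKO cells (0.043%). Empty droplets of the control held Rag1 at 9.33 CPM, against 340 in control small pre-B-like cells.

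**Figure D3:**
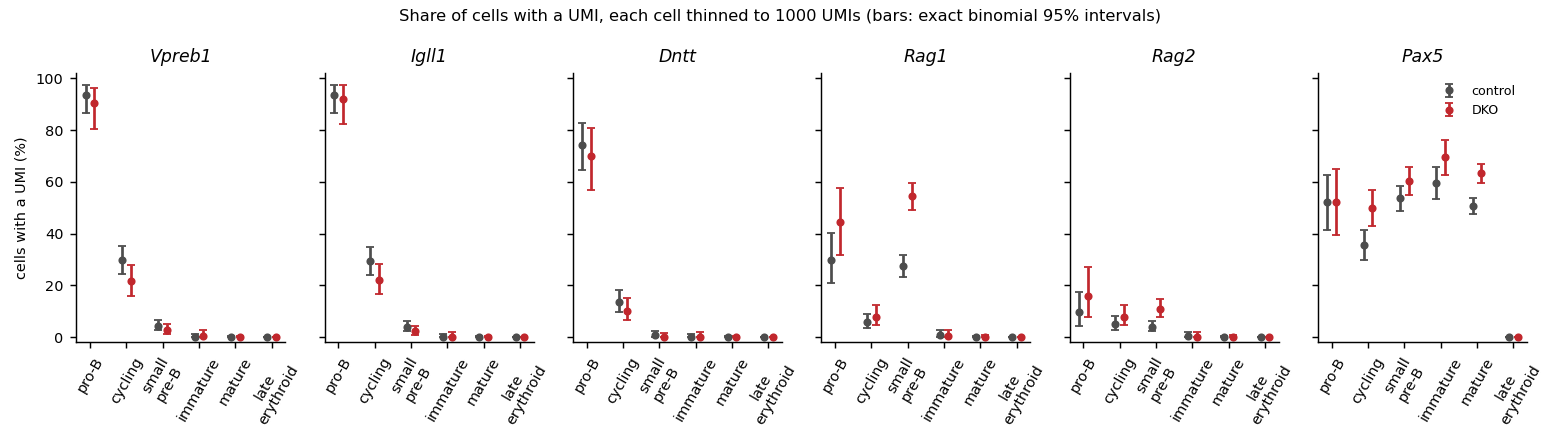
Each panel shows, for 1 gene, the percentage of cells with at least 1 UMI after thinning every cell to 1000 UMIs, by B cell stage and in late erythroid-like cells, with exact binomial 95% intervals. In small pre-B-like cells the DKO share is 54.4% against 27.4% for Rag1, while Igll1 and Vpreb1 lie under 5% in both libraries.

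Small pre-B-like cells consisted of 2 clusters, which the libraries filled unequally. The first, led by Reln and Il2ra, held 253 control and 269 DKO cells, and the second, led by Dnajc7 and Arl5c, held 216 and 90. Rag1 was higher in the DKO library within both, with log2 ratios of 0.99 (0.78 to 1.21), just short of 2-fold, and 1.43 (1.06 to 1.82). The log2 ratios of Rag2 were 0.68 (0.13 to 1.32) and 1.35 (0.42 to 2.33). Summed late erythroid markers (10 of 10 detected in both libraries) stood at 11317 CPM in control and 4598 in DKO small pre-B-like cells, and summed neutrophil markers (8 of 9 detected in both) at 1242 and 601. Mature B markers stood at 1838 (11 of 12) and 1983 (12 of 12). The part of these transcripts in the Rag1 ratio was not tested, but leaving hemoglobin and immunoglobulin genes out of the totals gave 1.16.

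Igll1 and Vpreb1 were the members past the fold in the other direction in small pre-B-like cells. Igll1 had 108 UMIs in control and 27 in DKO cells, which gave a log2 ratio of -2.14 (-2.85 to -1.56), and Vpreb1 had 119 and 50, a ratio of -1.42 (-1.94 to -0.94). These sums rested on few cells, since Igll1 was found in 29 of 469 control and 13 of 359 DKO cells and Vpreb1 in 29 and 19. The 5 cells with most Igll1 held 61.1% of its UMIs in control and 70.4% in DKO cells, and for Vpreb1 the shares were 56.3% and 68.0%. After thinning to 1000 UMIs the shares of cells overlapped, with 3.98% (2.34 to 6.30) and 2.29% (0.995 to 4.47) for Igll1. When small pre-B-like cells were defined by UMI gates instead of clusters, which leaves pro-B cells among them, the ratios were 0.04 for Igll1 and -0.03 for Vpreb1. Clustered pro-B-like cells held 1205 and 1105 Igll1 UMIs in control and DKO cells, against 108 and 27 in small pre-B-like cells. Pro-B cells can therefore set the gated ratios, which cannot decide this difference. Rag1 was 1.07 under the same gates. Within the second cluster the Vpreb1 ratio was -0.31 (-1.10 to 0.36).

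In earlier stages the surrogate light chain genes differed less. In cycling cells Vpreb1 and Igll1 both had a log2 ratio of -0.51 (-0.61 to -0.41 and -0.62 to -0.41), and Vpreb3 of -0.41 (-0.46 to -0.35). In pro-B-like cells the ratios were -0.22 (-0.32 to -0.13) for Vpreb1, -0.15 (-0.27 to -0.03) for Igll1 and -0.25 (-0.35 to -0.16) for Vpreb3. All 3 were thus lower in the DKO library in each of these stages, under 2-fold and without a replicate. Vpreb2, whose reads may be split with Vpreb1, had the opposite direction in pro-B-like cells, with 0.57 (0.27 to 0.87), and -0.37 (-0.74 to -0.01) in cycling cells. Dntt did not share this, with 0.14 (-0.03 to 0.31) in pro-B-like and 0.01 (-0.15 to 0.18) in cycling cells. The B lineage cells left unnamed differed. A cluster of 149 control and 85 DKO cells had 0.70 (0.44 to 0.96) for Vpreb1, 0.56 (0.24 to 0.88) for Igll1 and -0.34 (-0.47 to -0.21) for Vpreb3. One of 19 and 10 cells had 1.72, 0.71 and 1.03, and one of 29 and 8 cells held 34 and 0 Vpreb1 UMIs. The part of these cells in the stage ratios was not tested.

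Pax5 was higher in the DKO library in all 5 B cell stages, always under 2-fold. Pax5 and Ebf1 are long genes (185.731 and 390.775 kb), so their levels may depend on whether reads in introns were counted, which is not given in the sources used here. Its log2 ratio was 0.34 (0.09 to 0.61) in pro-B-like, 0.39 (0.29 to 0.50) in cycling, 0.42 (0.30 to 0.55) in small pre-B-like, 0.33 (0.19 to 0.46) in immature and 0.47 (0.39 to 0.56) in mature B-like cells. Ebf1 differed less, with log2 ratios of 0.19, 0.02, 0.13, 0.26 and 0.31 in the same order. Cd79a was lower in the DKO library, with a log2 ratio of -0.36 (-0.41 to -0.30) in mature and -0.24 (-0.33 to -0.15) in immature B-like cells, and Cd79b had -0.33 (-0.40 to -0.25) and -0.17 (-0.28 to -0.06). The Cd79b ratio lay at 0.03, 0.05 and 0.01 in the 3 earlier stages, with 0 inside each interval.

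The mature B-like values moved with the clusters that made up the stage. A cluster led by H2-Eb1 and Cd74 held 467 control and 81 DKO cells, and a cluster led by Gm47782, Lncpint and Setbp1 held 120 and 316. Without both, the Ebf1 ratio went from 0.31 to 0.04, that of Cd79a from -0.36 to -0.05, that of Cd79b from -0.33 to -0.09 and that of Vpreb3 from -0.26 to 0.09. Pax5 kept a ratio of 0.29. Within the largest cluster that both libraries filled, led by Gpr183 and Fcer2a with 493 and 287 cells, Pax5 had a ratio of 0.29 (0.17 to 0.42), and the intervals of Ebf1, Cd79a, Cd79b and Vpreb3 included 0.

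**Figure D4:**
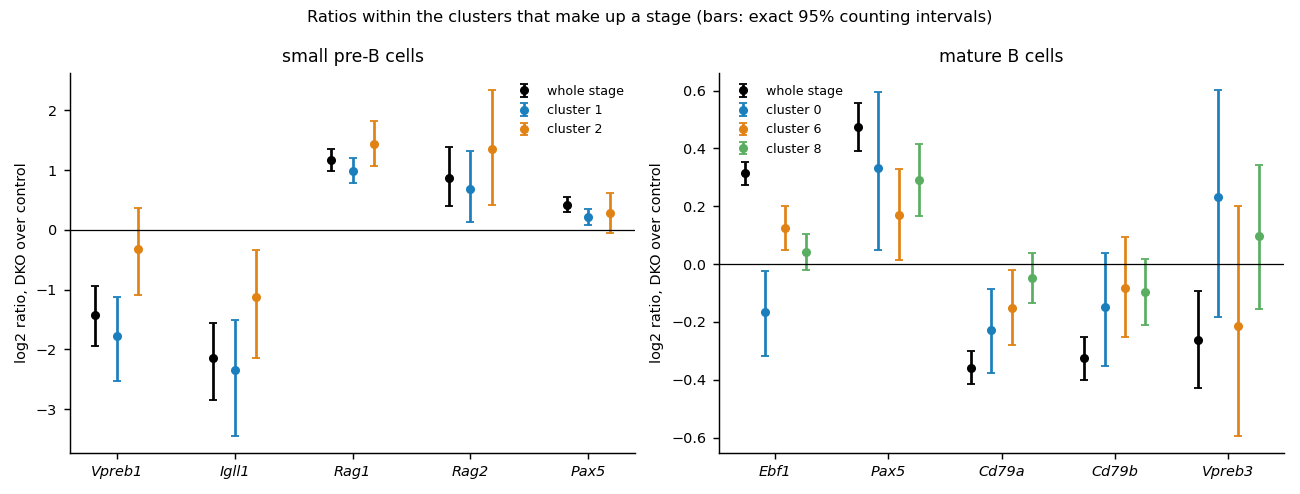
The panels show log2 ratios (DKO over control), with exact 95% counting intervals, for single genes within the clusters that make up the small pre-B-like and the mature B-like stage. Rag1 lies above 0 in both small pre-B-like clusters (0.99 and 1.43), and in the mature B-like cluster filled by both libraries Pax5 lies at 0.29 while Ebf1 lies at 0.04.

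In plasma cell-like cells Ebf1 had 243 CPM in control and 68.3 in DKO cells, which gave a log2 ratio of -1.81 (-2.27 to -1.41). Pax5 had 46 UMIs in control and 1 in DKO cells, a ratio of -4.41 (-10.72 to -2.83), while Cd79b had 209 and 217 CPM. The control levels were close to those of the empty droplets of the same library, 279 CPM for Ebf1 and 43.7 for Pax5. Of the markers of other cells, some lists differed between the libraries and some did not. All 12 mature B markers were detected in control and 8 of 12 in DKO plasma cell-like cells (4472 and 4173 CPM), late erythroid markers summed to 77610 and 9963 (10 of 10 in both), and T or NK cell markers to 126 (11 of 12) and 5.88 (3 of 12). Macrophage markers summed to 18.1 (8 of 10) and 34.1 (6 of 10). The part of these transcripts in the Ebf1 and Pax5 ratios was not tested. No member was past 2-fold in plasma cell-like cells when cells marked as doublets were kept. The clustering then also redrew the class, to 45 control and 51 DKO cells instead of 66 and 52.

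Other genes of the same pathways were also compared between the libraries. From pro-B-like to mature B-like cells, 13%, 1.2%, 3.66%, 5.06% and 1.92% of all genes tested passed 2-fold. At those shares few genes would pass in lists this short. Of the partners of the pre-B receptor (Vpreb2, Ighm, Blnk, Btk, Syk, Lyn, Blk and Plcg2) and the 6 genes of the IL-7 receptor pathway, none that reached 20 CPM passed 2-fold in any of the 5 B cell stages. Neither did any of the 17 further B lineage regulators (14 of them tested in mature B-like cells), among them Foxo1 and Tcf3, which are known to act on the Rag genes. Of the 13 recombination and end joining genes, 11 were tested in pro-B-like and 11 in immature B-like cells. Dclre1c (the nuclease Artemis) was higher in DKO pro-B-like cells at 1.23 (0.16 to 2.62), Xrcc5 (Ku80) had -1.29 (-3.59 to 0.27) there, and Paxx was lower at -1.43 (-2.59 to -0.50) in immature B-like cells. Their sums were 9 and 23, 11 and 4, and 32 and 12 UMIs. In small pre-B-like cells the median log2 ratio was 0.05 over the 10 recombination genes, 0.27 over the 17 regulators and 0.33 over the 4 IL-7 receptor genes, beside 0.05 over all genes tested. Il7r itself had 619 and 798 CPM there, and 2 and 10 UMIs in all mature B-like cells. Plasma cell-like cells differed more. There 4 of the 11 regulators tested were lower in the DKO library, with log2 ratios of -5.90 for Bach2, -1.70 for Ets1, -1.37 for Runx1 and -1.33 for Spi1. So were 1 of 4 recombination genes (Hmgb2, -3.39) and 1 of 3 IL-7 receptor genes (Jak1, -1.11). Of the receptor partners named here, Ighm was higher (2.23) and Lyn and Blk lower (-1.76 each). The share of all genes past 2-fold in that class was 23%, and the median log2 ratio was -0.61 over the regulators beside -0.30 over all genes tested.

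Across stages some of these genes shared the course of the members. From pro-B-like to mature B-like cells, Vpreb2, Xrcc6 (Ku70), Lig4 (the ligase that closes the coding joints), Lef1, Sox4, Myb and Il7r were at least 4-fold lower in both libraries, and Ikzf3 and Pou2f2 at least 4-fold higher. Lef1, Sox4, Myb and Il7r were among the markers that named the pro-B-like stage, so their higher level there than in mature B-like cells was partly built in. Lef1 and Myb were highest in pro-B-like cells. Il7r (354 and 368 CPM) and Sox4 (480 and 715) were higher in small pre-B-like cells, at 619 and 798 and at 640 and 771. Kit, another marker of that list, had only 5 and 2 UMIs in pro-B-like cells. Vpreb2, unlike the members, could enter the clustering. Between pro-B-like and small pre-B-like cells, Vpreb2 and Lef1 were higher in the former, and Blk, Polm, Ikzf3 and Irf4 in the latter. Of the 13 recombination genes, 10 reached 20 CPM in a stage of each library, and among these Polm, a polymerase of end joining, was the one past 4-fold between these stages.

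Outside the B lineage the members were counted at low levels, with exceptions. Between 83.6% and 96.7% of the UMIs of 9 members lay in the B lineage class, but only 43.0% of control and 65.0% of DKO Dntt UMIs did. Plasmacytoid dendritic cell-like cells had Dntt at 111 and 95.5 CPM, in 34.9% and 39.0% of cells, and granulocyte-monocyte or cKit+ progenitor-like cells at 57.4 and 44.0, while late erythroid-like cells had 0.42 and 0.13. The progenitor-like cells held 43.0% of control Dntt UMIs, as many as the B lineage class, and 21.6% of DKO Dntt UMIs. The plasmacytoid dendritic cell-like cells held 11.6% and 6.36%. Ebf1 was counted in stromal cell-like cells at 963 and 2032 CPM, in 42.3% and 58.1% of cells, while Pax5 had 33.3 and 2.03 there. Cd79b was found in 34.9% and 36.0% of the progenitor-like cells, at 30.7 and 26.1 CPM. Thinned to 1000 UMIs this share was 2.99% and 1.85%, beside 0.30% and 0.13% in late erythroid-like cells. Empty droplets of the control held Cd79b at 62.6 CPM, above the 30.7 of the control progenitor-like cells. Cd79b was not particular to the progenitor-like cells, since plasmacytoid dendritic cell-like cells held 137 and 58 and monocyte-like cells 208 and 115 of its UMIs. In the 66 DKO basophil-like or mast cell-like cells Ebf1 had 523 and Vpreb1 118 CPM, with Vpreb1 in 5 cells only.

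**Figure D5:**
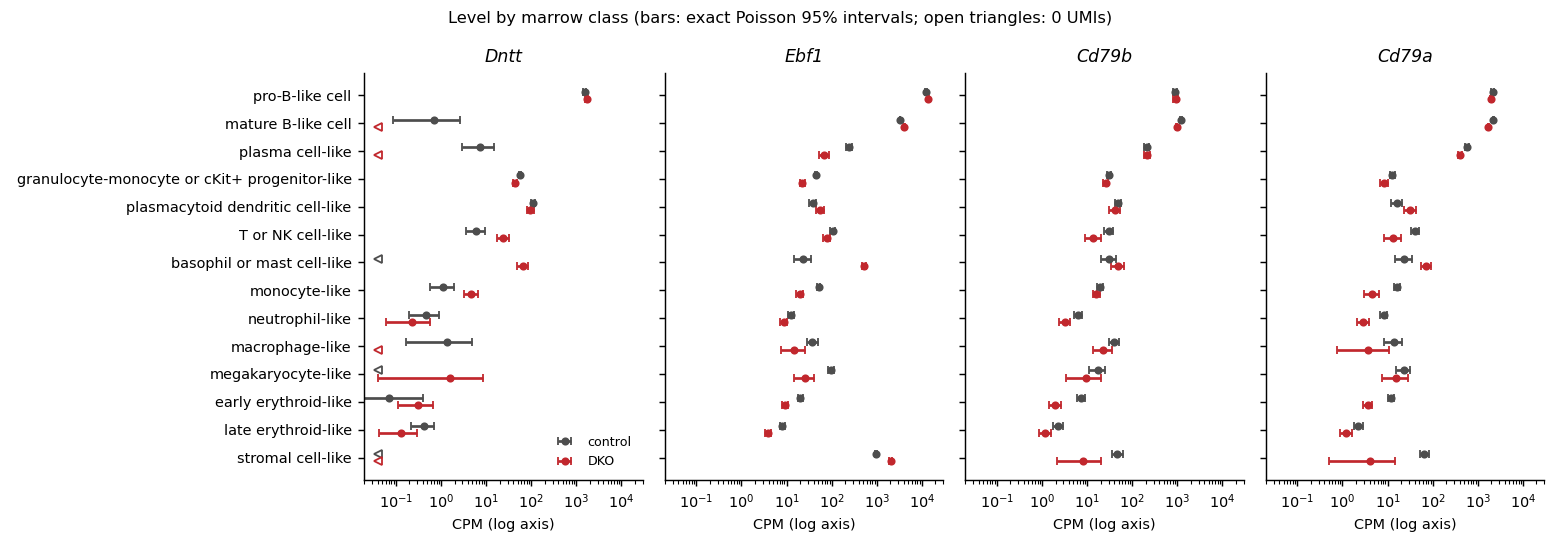
Each panel shows 1 gene, with CPM on a log axis for the classes of marrow cells in both libraries, exact Poisson 95% intervals as bars and open triangles where no UMI was counted. Dntt stands at 111 and 95.5 in plasmacytoid dendritic cell-like cells and Ebf1 at 963 and 2032 in stromal cell-like cells, and every member lies under 10 in late erythroid-like cells.

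The genes most like each member were found by Pearson's r of log levels over 12 points, the 5 stages and the plasma cell-like class in both libraries, among 7843 genes. The points share libraries and cells, so r is a description. Vpreb1 was closest to Csgalnact1 (0.98), Igll1 to Gfra2 (0.97), Dntt to Arpp21 (0.98) and Vpreb3 to Cplx2 (0.98). Arpp21 had been listed as a small pre-B marker, although its level was higher in pro-B-like cells. Rag1 was closest to Gpam (0.98), followed by Xrcc6 (0.98), and Rag2 to Ptgr1 (0.97). Ebf1 was closest to its antisense gene Gm12158 (0.99), Pax5 to Sbk1 (0.99), Cd79a to Cd37 (0.99) and Cd79b to Cdyl2 (0.98).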

How the data were processed

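Single-cell RNA was measured in bone marrow of 1 control and 1 DKO mouse. The authors deposited raw UMI counts per gene and barcode, which the file headers credit to Cell Ranger 7.1.0 and the submitters' processing notes to build mm10, with the annotation release and the counting of introns not given in the sources used here. The control table held every barcode. Control cells were therefore called here against the profile of empty droplets (barcodes of at most 100 UMIs), at 500 UMIs or more and a false discovery rate of 0.01, and DKO barcodes were used as deposited. Cells over 20% mitochondrial UMIs (174 control and 215 DKO) and cells marked as doublets by Scrublet within each library (381 and 198) were left out.

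Cells of both libraries were clustered with scanpy 1.11.5 and leidenalg 0.10.2 (2000 variable genes, 30 components, resolution 1), and B lineage cells again (20 components, resolution 0.8). The 10 genes, Ddx41, Cgas and immunoglobulin segments were left out of the clustering and of the marker lists. A cluster took the name whose markers were raised most (at least 3 markers, mean log2 fold of at least 0.5) and stayed unnamed when 3 of its 10 leading genes were markers of another class or 2 were class-switched heavy chain genes. These last limits were set after the clusters had been seen. The genes, the stage markers and the pathway lists were chosen with earlier results of these data known.

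Counts were summed per stage and library and given in CPM (scaled to 1000000 UMIs), with exact Poisson intervals for levels, exact conditional binomial intervals for ratios and Clopper-Pearson intervals for shares (scipy 1.17.1), all at 95%. No test between genotypes was possible over 1 library each. A 4-fold change put into 200 genes of simulated counts was recovered past 2-fold for 94.5% (pro-B-like) to 99.5% (cycling and small pre-B-like) of them, and 8.57% (pro-B-like) of unchanged genes passed by counting error. Named are the 10 genes, genes of the fixed pathway lists past the fold or that a result turns on, and the genes most like each member. Positions are from GENCODE M21 (GRCm38). Alternatives covered scaling, the weight of cells, cell and doublet filters, the definition of stages, the filter on low values and depth, and sums over single clusters were added later, with the data in view. A gene of the pathway lists is not reported here. The Cd79b promoter was not available in the table used.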

Additional observations from a re-analysis of the deposited data

Results flagged for a closer look

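The log2 ratio of DKO over control pointed in opposite directions in mature B-like and plasma cell-like cells for both regulators. For Ebf1 it was 0.31 in mature B-like and -1.81 in plasma cell-like cells, and for Pax5 it was 0.47 and -4.41. Each stage had 1 library per genotype, so the difference between the stages was not tested. The Pax5 value of plasma cell-like cells rests on 46 control UMIs and 1 DKO UMI. The control plasma cell-like levels of both genes, 243 and 49.0 CPM, lay beside 279 and 43.7 in the empty droplets of the same library, and empty droplets of the DKO library were not analysed here.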

How the results depend on the processing

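The Rag1 ratio of small pre-B-like cells (log2 1.17) stayed between 1.07 and 1.19 under the other scalings, cell filters, stage definitions and depths tried, except the sums over single clusters. The Igll1 ratio there (-2.14) was 0.045 when stages were drawn by UMI gates. The gates have no pro-B stage of their own, so pro-B cells can set that ratio. Without the filter on low values, genes past 2-fold numbered 3357 in pro-B-like, 2891 in cycling, 3102 in small pre-B-like, 2932 in immature, 3020 in mature and 4221 in plasma cell-like cells, and members past it 1 in immature, 4 in mature and 6 in plasma cell-like cells, since sums of few UMIs then counted. In small pre-B-like cells Dntt, with 9 and 4 UMIs and a ratio of -1.18, then passed as well. Both these counts and the member counts that follow are given without the share of all genes past the same fold in each setting. They therefore cannot be set against a background. With the gates, 3 members passed 2-fold in immature and 2 in mature B-like cells, and 1 and 2 passed 4-fold between cycling and small pre-B-like and between immature and mature B-like cells. At resolution 1.2, 2 members passed in cycling cells and 1 between cycling and small pre-B-like cells. With doublets kept, 0 passed in plasma cell-like cells, a class then redrawn to 45 control and 51 DKO cells, and 1 between cycling and small pre-B-like cells. Totals without hemoglobin and immunoglobulin genes gave 1574 genes past 2-fold in plasma cell-like cells (919 otherwise), and the second small pre-B-like cluster alone gave 874 (237 for the stage). The cause was not tested. No paired analysis was possible because each genotype had 1 library and no replicate numbers. The counting error of the 63 DKO pro-B-like and 52 plasma cell-like cells limits what those stages can show.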
